A study of Mus musculus with 24 samples.

Results

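Pan-reactive astrocyte genes were followed in all 24 RNA-seq libraries of the study. The 8 genes Lcn2, Serpina3n, Steap4, S1pr3, Hspb1, Cp, Aspg and Cd44 were taken by symbol from the 49671 genes of the count table, after the Ensembl identifiers had been matched to the Gencode mouse annotation. All 8 were found by identifier and all 8 passed the filter on low counts that left 19691 genes for testing. Astrocytes respond to injury, infection and cytokines with a change of state called reactivity, and genes of this kind are named pan-reactive because they rise under several unlike insults, in contrast to genes tied to one insult. Many are driven by cytokine receptors that signal through STAT3 and by NF-kB, and their products are secreted acute-phase proteins, metal-handling enzymes, adhesion molecules and chaperones. Isolation, plating and growth of astrocytes outside the brain are themselves known to switch on part of this program.

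The study asked how culture, age and stem cell origin shape the transcriptome of mouse astrocytes, with 6 groups of 4 libraries each. Neural stem cells (NSCs) came from the C57BL/6N embryonic stem cell line GSC-5003 and were grown with 20 ng/ml EGF and 20 ng/ml FGF. AGES, astrocytes generated from embryonic stem cells, were made from those NSCs with 20 ng/ml BMP4, given as 3 days before use and elsewhere as 3 to 5 days, so both groups descend from 1 line. Primary astrocytes came from untreated wild-type C57BL/6J mice, aged 4 to 8 days (neoAC) or 100 to 140 days (AdAC), with 2 brains of mixed sex pooled per isolation. Cells were selected with magnetic beads against the astrocyte surface antigen ACSA-2 and either snap-frozen (direct) or kept for 7 to 10 days in 1 medium on poly-L-lysine and laminin (CellC). The paper names removal of olfactory bulb and cerebellum for adult cells isolated directly, and does not say whether adult cultures had it too. Culture and the brain region taken may therefore not be separable in adult cells. The neonatal and adult brains were dissociated with different kits, and debris and red blood cells were removed from adult samples alone, so age and isolation procedure cannot be told apart. AGES and NSCs were grown in other media than the primary cells, so cell origin and medium cannot be told apart either. The libraries held 27904126 to 37997368 counts, and 3 counts, taken here as the floor of detection, stood for 0.0786 to 0.117 CPM, the count scaled to a library of standard size.

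Lcn2 encodes lipocalin-2, a secreted binder of iron-loaded siderophores, and lies at chr2:32384633-32388252 on the minus strand of GRCm38. Serpina3n, a secreted inhibitor of serine proteases, lies at chr12:104406729-104414329 on the plus strand. Steap4, a membrane reductase of iron and copper, lies at chr5:7960457-7982213, and Cp, which encodes the copper-carrying ferroxidase ceruloplasmin, at chr3:19957054-20009145, both on the plus strand. S1pr3, a receptor for sphingosine-1-phosphate, lies at chr13:51408639-51422797 on the plus strand. Hspb1, the small heat shock protein also called Hsp25 in mouse, lies at chr5:135887919-135889563 on the plus strand. Aspg, an asparaginase, lies at chr12:112106679-112127559 on the plus strand, and Cd44, the main cell surface receptor for hyaluronan, at chr2:102811141-102901665 on the minus strand. All 8 are protein-coding. An exon of Hps3 overlaps Cp on the opposite strand, with a mean of 11.8 to 18.3 CPM in the groups, and an exon of Gm32834 overlaps S1pr3. Of the 100-base windows of the longest Hspb1 transcript, 42.7% also occur in the pseudogene Hsp25-ps1, whose mean was at most 0.831 CPM, so the Hspb1 values hold only the reads that counting assigned to it.

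The promoters of the members differed in the letters they hold, and the promoters of Steap4 and Hspb1 are shown because they carry motifs of the pathways named above. The windows are 235 and 250 bases long, from RefSeq (GRCm38.p6), at chr5:7960222-7960456 and chr5:135887669-135887918 on the plus strand, and end before the first annotated base of each gene. An exon of another annotated gene, Gm30835, lies in the Steap4 window. Capitals mark, in Steap4 from 5′ to 3′, a kB-like match of the lower strand, a STAT match and a C/EBP-like match, and in Hspb1 a pair of heat shock elements.
Steap4: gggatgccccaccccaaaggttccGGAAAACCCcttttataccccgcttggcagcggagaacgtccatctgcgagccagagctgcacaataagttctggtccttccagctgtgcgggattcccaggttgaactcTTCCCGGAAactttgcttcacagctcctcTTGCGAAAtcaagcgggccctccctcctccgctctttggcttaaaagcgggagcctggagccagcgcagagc
Hspb1: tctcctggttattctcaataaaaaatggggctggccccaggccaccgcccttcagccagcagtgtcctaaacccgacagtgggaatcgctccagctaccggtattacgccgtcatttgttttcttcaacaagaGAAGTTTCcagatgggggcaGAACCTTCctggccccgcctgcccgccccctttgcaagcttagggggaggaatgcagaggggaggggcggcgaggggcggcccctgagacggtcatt

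The letters searched on both strands of the 250 bases before each start were TTCNNNGAA for STAT, GGGNTTTCC for the kB-like motif, TTGCNNAA for the C/EBP-like motif and GAANNTTC for the heat shock element. Of 32851 mouse promoters of that length, 7.02%, 1.46%, 9.56% and 6.69% held them. Lcn2 and the second promoter of Cp also held a C/EBP-like match, and the windows of Serpina3n, S1pr3, Aspg and Cd44 held none of these letters. A match describes the sequence alone.

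The levels of the 8 genes spanned several orders of magnitude and followed no common order of the groups. Lcn2, Serpina3n and Hspb1 had their highest mean in AdAC CellC, Steap4 and S1pr3 in neoAC CellC, Cp and Cd44 in AGES, and Aspg in AdAC direct. The lowest mean was in NSCs for Serpina3n, Steap4, S1pr3 and Aspg, in AdAC direct for Lcn2 and Cd44, in neoAC direct for Cp, and in AGES for Hspb1. In the order of the 6 group means, 12 of the 40 pairs of neighbouring groups did not pass an edgeR adjusted p of 0.05, 3 of them for Lcn2, 2 each for Serpina3n, Steap4 and Hspb1, and 1 each for Cp, Aspg and Cd44. S1pr3 alone had 6 levels of which every neighbouring pair passed. Such pairs were not counted over all genes tested, of which 70.7% to 86.2% differed in the 8 pairs of groups taken last below. These counts thus describe the members and mark out neither them nor S1pr3.

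**Figure D1:**
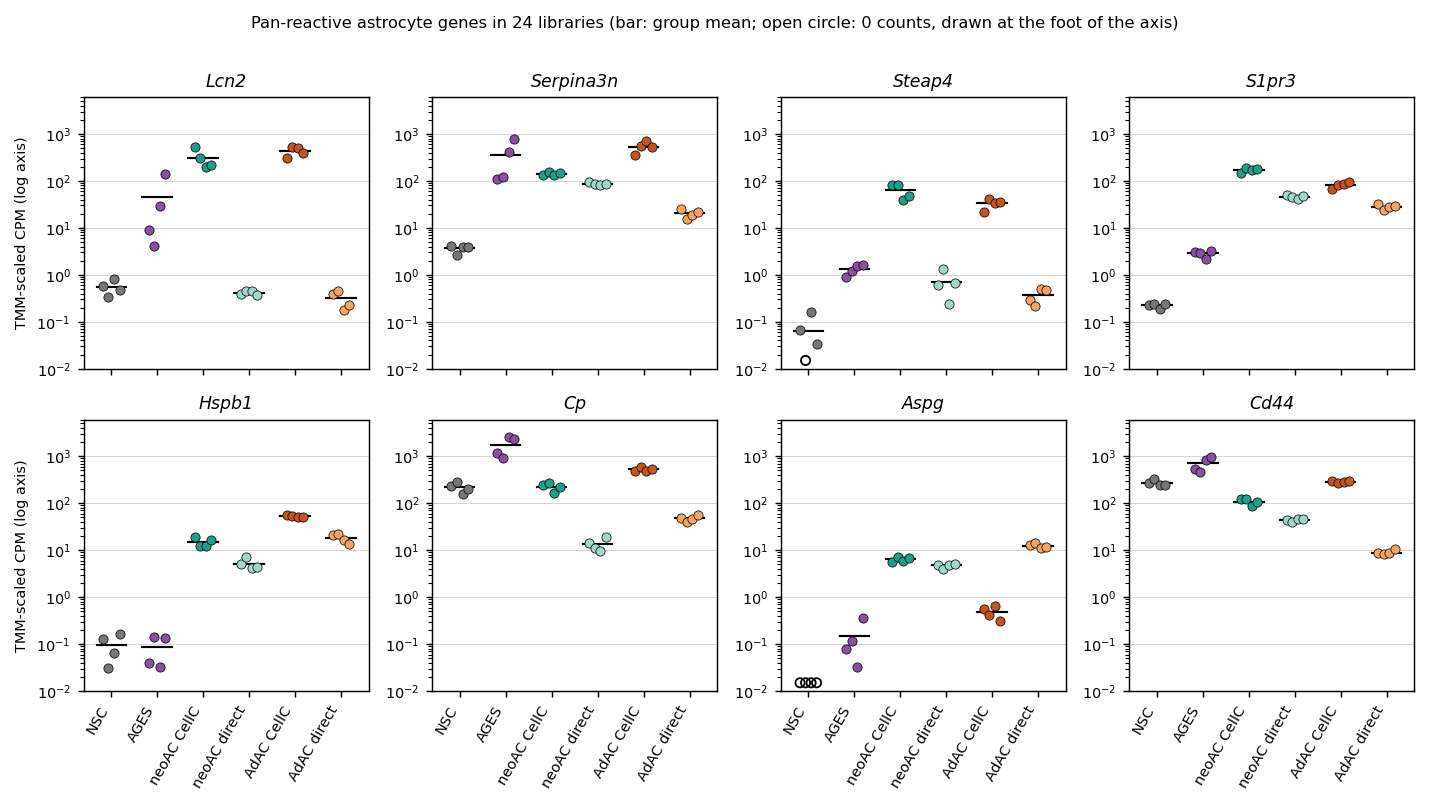
Level of the 8 genes in each of the 24 libraries, on a log axis of TMM-scaled CPM, with 4 points and a bar at the mean for each group. Lcn2 and Steap4 separate cultured from directly isolated cells, Hspb1 is near the floor in NSCs and AGES, and Aspg is at 0 counts in the 4 NSC libraries.

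Before the comparisons, the labels were checked against marker genes. The 10 astrocyte markers, among them Aqp4, Slc1a2 and Aldh1l1, summed to 16252 to 16972 CPM in AdAC direct and 21797 to 24611 CPM in neoAC direct, and the mean of none was at the floor in any group. Their sum was 1003 to 1521 CPM in AdAC CellC, 7630 to 8842 CPM in neoAC CellC, 2019 to 2547 CPM in NSCs and 55392 to 60335 CPM in AGES, where Gfap alone gave a mean of 50503 CPM. The 6 oligodendrocyte markers, among them Mbp and Mog, summed to 23482 to 26457 CPM in AdAC direct, more than the astrocyte markers there, to 3861 to 10037 CPM in AdAC CellC, and to at most 151 CPM in a library of the other groups. The 8 fibroblast markers summed to 1070 to 1552 CPM in AdAC CellC, 87.7 to 104 CPM in AdAC direct, 454 to 707 CPM in neoAC CellC, 213 to 355 CPM in neoAC direct and at most 16.7 CPM in NSCs and AGES. The 7 mural markers summed to 873 to 1033 CPM in AdAC CellC, 454 to 489 CPM in AdAC direct, 310 to 668 CPM in neoAC CellC, 281 to 618 CPM in neoAC direct and at most 8.86 CPM in NSCs and AGES. Most of the mural sum in culture was Acta2, with a mean of 813 CPM in AdAC CellC and 429 CPM in neoAC CellC. At either age 1 mural marker was higher and 6 were lower in cultured than in directly isolated cells. The 8 microglia markers reached 68.5 CPM in 1 neoAC direct library and 42.2 CPM at most elsewhere, the 7 endothelial markers 388 CPM at most, and the 7 neutrophil markers 3.12 CPM at most, with Ngp and Retnlg at the floor in all groups. These are bulk libraries, so fewer cells of a type and less RNA per cell cannot be told apart.

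**Figure D2:**
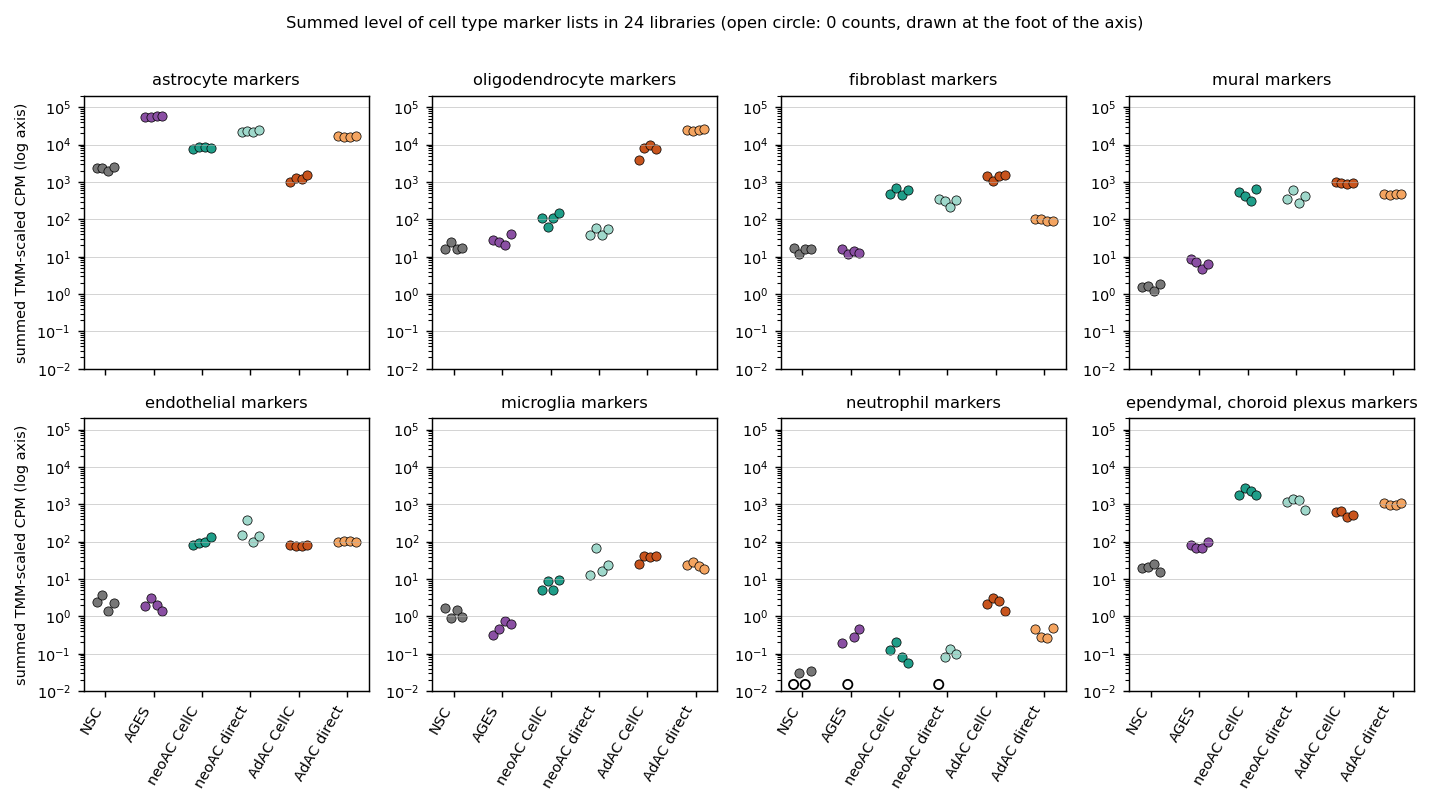
Summed level of 8 marker lists in each of the 24 libraries, on a log axis of TMM-scaled CPM. Oligodendrocyte markers are high in both adult groups, and astrocyte markers are lower in cultured than in directly isolated cells of either age.

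The first comparison asked what culture does to adult astrocytes. Of the 8 genes, 7 were higher in AdAC CellC than in AdAC direct and 1, Aspg, was lower, while 38.8% of all genes tested were higher and 39.2% lower. The median log2 fold change was 4.09 over the 8 genes and 0 over all genes tested. In no member did a cultured library overlap a directly isolated one, as was the case for 76.3% of all genes tested. Here and below, levels are given as mean ± SD of 4 libraries and log2 fold changes as the estimate ± SE, with Benjamini-Hochberg adjusted p-values of edgeR over all genes tested.

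Lcn2 had 309, 526, 493 and 388 CPM in the 4 AdAC CellC libraries and 0.390, 0.463, 0.178 and 0.226 CPM in the 4 AdAC direct libraries, which held 40 Lcn2 counts in all. The cultured libraries were all far above the direct ones, by 10.42 ± 1.08 on the log2 scale (adjusted p = 3.01e-08). From the summed counts the ratio was 1403, with a 95% interval of 1030 to 1963 that covers counting error alone. Neutrophils are a known source of lipocalin-2, and their 7 markers summed to 3.12 CPM at most in AdAC CellC, with Ngp, S100a9 and Retnlg at the floor. The 1 neutrophil marker that could be tested, Mmp8, named after its values were seen, was higher in AdAC CellC, at a mean of 1.82 CPM against 0.0163 CPM.

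Steap4 measured 22.2, 42.0, 33.6 and 35.1 CPM in AdAC CellC and 0.284, 0.216, 0.505 and 0.480 CPM in AdAC direct, a difference of 6.45 ± 0.38 on the log2 scale (adjusted p = 1.96e-13). Cp, the other metal enzyme of the group, measured 496, 594, 490 and 541 CPM against 48.0, 39.3, 47.0 and 57.0 CPM, 3.47 ± 0.29 higher (adjusted p = 2.25e-10). Both sets of cultured libraries stood clear of the direct ones, with means 89.5-fold higher for Steap4 and 11.1-fold higher for Cp.

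Serpina3n measured 349, 555, 692 and 524 CPM in AdAC CellC and 25.7, 15.1, 18.8 and 21.4 CPM in AdAC direct, which gave a log2 fold change of 4.71 ± 0.47 (adjusted p = 1.19e-08). Cd44 measured 291, 269, 278 and 295 CPM against 8.62, 8.13, 8.50 and 10.4 CPM, and its log2 fold change of 4.99 ± 0.19 had the smallest adjusted p of the members here (4.30e-17). The mean of Cd44 was 31.8-fold higher in culture and that of Serpina3n 26.2-fold higher. S1pr3 and Hspb1 changed less, S1pr3 from 28.3 ± 2.95 to 81.8 ± 11.1 CPM (n = 4) and Hspb1 from 18.3 ± 3.83 to 53.7 ± 2.54 CPM, with log2 fold changes of 1.53 ± 0.10 and 1.56 ± 0.17. Fibroblast markers moved in the same direction, with 5 of 8 higher and 1 lower, Col3a1 by 4.73 and Col1a1 by 4.41 on the log2 scale, and among the 7 mural markers Acta2 was 3.54 higher and 6 were lower. Cd44 and Serpina3n are not restricted to astrocytes, and the part of these cell types in the members' change was not tested.

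Aspg went the other way. It measured 12.7, 14.3, 11.3 and 11.8 CPM in AdAC direct and 0.553, 0.408, 0.637 and 0.310 CPM in AdAC CellC, and fell by 4.69 on the log2 scale (SE 0.26, adjusted p = 2.15e-13), to a level about 26.3-fold lower. In the same comparison 9 of the 10 astrocyte markers were lower and none was higher, with a median log2 fold change of -3.10, Slc1a2 at -6.93 and Aldoc at -5.12. Oligodendrocyte markers were lower for 5 of 6, Mog by 2.40 in size. The part of these markers in the change of Aspg was not tested.

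The same question in neonatal cells gave 6 of 8 genes higher in neoAC CellC than in neoAC direct, none lower and 2 that did not pass, Serpina3n and Aspg, while 34.4% of all genes tested were higher and 31.3% lower. The median log2 fold change was 1.71 over the 8 genes and 0.04 over all genes. With scaling by library size alone, the split over all genes tested was 8628 higher and 4468 lower, against 6766 and 6170 with TMM, and Aspg passed as well (log2 fold change 0.68, adjusted p = 0.00769).

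Lcn2 had 531, 302, 199 and 214 CPM in neoAC CellC and 0.390, 0.443, 0.442 and 0.366 CPM in neoAC direct, 9.55 ± 1.04 higher on the log2 scale (adjusted p = 1.08e-07). Steap4 had 82.4, 80.8, 39.9 and 48.6 CPM against 0.618, 1.30, 0.238 and 0.665 CPM, 6.43 ± 0.35 higher (adjusted p = 1.47e-13). In both genes replicates 1 and 2 were the higher cultured libraries, and every cultured library lay above every direct one. Cp rose from 13.5 ± 4.13 to 225 ± 44.8 CPM, with a log2 fold change of 4.06 ± 0.30 (adjusted p = 6.28e-11).

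S1pr3 measured 149, 186, 170 and 180 CPM in neoAC CellC, its highest group, and 49.2, 44.9, 41.9 and 48.8 CPM in neoAC direct, 1.89 ± 0.10 higher on the log2 scale (adjusted p = 3.32e-14). Cd44 measured 121, 121, 87.1 and 104 CPM against 43.7, 39.0, 45.6 and 46.2 CPM, 1.31 ± 0.17 higher (adjusted p = 1.84e-07). Hspb1 measured 18.6, 12.4, 12.1 and 16.7 CPM against 4.97, 7.14, 4.21 and 4.29 CPM, 1.53 ± 0.18 higher (adjusted p = 6.81e-08). Each of these genes had its cultured libraries above its direct ones, a separation of groups that 58.0% of all genes tested showed in either direction, at means 3.71-fold, 2.48-fold and 2.90-fold higher.

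Serpina3n measured 137, 152, 135 and 144 CPM in neoAC CellC and 93.9, 88.0, 82.2 and 86.8 CPM in neoAC direct. The libraries did not overlap, but the log2 fold change of 0.69 ± 0.41 did not pass in the fit of all 6 groups (adjusted p = 0.139, 95% interval -0.10 to 1.49), where the spread of this gene is shared with the other groups. In a fit of the neonatal groups alone it was 0.67 and passed (adjusted p = 1.01e-05). Aspg measured 5.65, 7.26, 6.01 and 6.84 CPM against 4.94, 4.07, 4.72 and 5.19 CPM, again without overlap, with a log2 fold change of 0.45 ± 0.21 (adjusted p = 0.067). The DESeq2 Wald test gave 0.46 for Aspg with an adjusted p of 0.00336. Of the 10 astrocyte markers, 8 were lower and 1 higher in neoAC CellC, with a median log2 fold change of -1.20, and all 6 oligodendrocyte markers were higher, from 47.7 to 107 CPM in summed mean. Of the 6 ependymal and choroid plexus markers 4 were higher and 1 lower, from 1118 to 2126 CPM in summed mean (median log2 fold change 2.07), and of the 8 fibroblast markers 5 were higher and 2 lower, from 303 to 567 CPM. The part of these markers in the members' change was not tested.

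Whether culture changed the members differently in adult and neonatal cells was tested as an interaction, adult minus neonatal. It was positive for Serpina3n and Cd44, negative for Aspg and S1pr3, and did not pass for the other 4, with 35.4% of all genes tested positive and 33.2% negative, 68.6% in all. The difference was 4.02 ± 0.60 on the log2 scale for Serpina3n (adjusted p = 5.05e-06) and 3.67 ± 0.24 for Cd44 (adjusted p = 1.82e-12), both of which rose more in adult cells. It was -5.14 ± 0.34 for Aspg (adjusted p = 7.20e-12), which fell in adult cells and did not pass in neonatal ones. Fibroblast markers rose in summed mean from 96.2 to 1365 CPM with adult culture and from 303 to 567 CPM with neonatal culture. Oligodendrocyte markers fell from 25070 to 7408 CPM with adult culture and rose from 47.7 to 107 CPM with neonatal culture. The part of these cell types in the interactions was not tested.

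For S1pr3 the interaction was small, -0.36 ± 0.14 (adjusted p = 0.0288), and it no longer passed when any 1 of 6 libraries was left out: neoAC CellC replicate 2 or 4, neoAC direct replicate 3, AdAC CellC replicate 1, or AdAC direct replicate 1 or 4, with values of -0.33 to -0.26. The interaction was 0.87 for Lcn2 (95% interval -2.79 to 4.52), 0.02 for Steap4 (-0.80 to 0.84), 0.03 for Hspb1 (-0.47 to 0.52) and -0.59 for Cp (-1.34 to 0.15). For Hspb1 a difference between the ages of more than 0.52 in either direction lies outside the interval. For Steap4 the SE of the interaction, 0.42, was below that of neoAC direct against AdAC direct, 0.50, so its interval is not read as a bound. The interval of Lcn2 is wide in the fit of all 6 groups, where the spread of a gene is shared between groups. The coefficient of variation of Lcn2 was 140% in AGES and 9.38% in neoAC direct. Both culture comparisons have their own direct controls and share none.

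**Figure D3:**
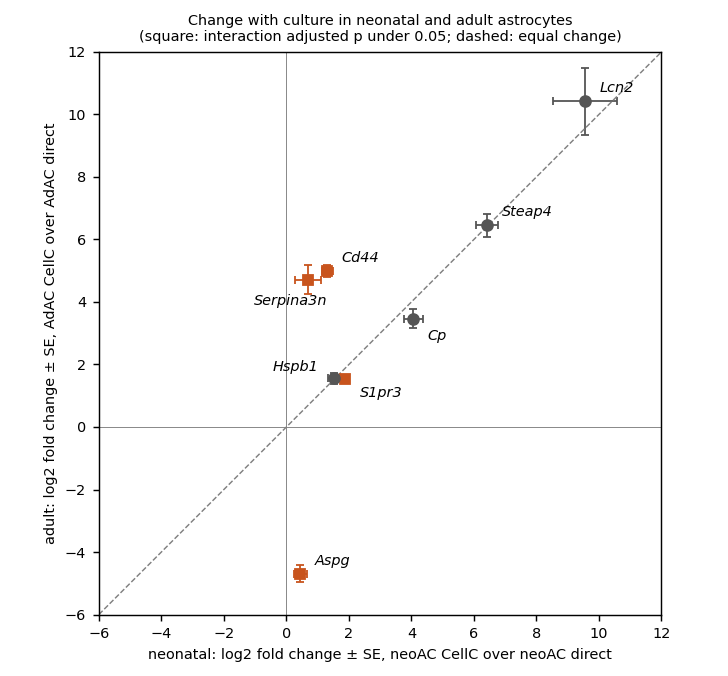
Log2 fold change with culture of the 8 genes in neonatal (horizontal) and adult (vertical) astrocytes, with standard errors, and a dashed line where both are equal. Serpina3n, Cd44, Aspg and S1pr3 are drawn as squares because the interaction passed, and Aspg is the gene with a negative adult value.

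The step from NSCs to AGES was examined by setting AGES against NSCs. NSCs were grown with EGF and FGF on gelatin, and AGES with BMP4 in place of these factors on poly-L-ornithine and laminin. The addition of BMP4, the loss of EGF and FGF and the change of coating thus cannot be told apart. Of the 8 genes 7 were higher in AGES, none was lower and Hspb1 did not pass, while 31.7% of all genes tested were higher and 34.0% lower. The median log2 fold change was 3.98, or 3.33 with Aspg at its bound, against 0 over all genes.

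Lcn2 had 9.09, 4.03, 29.5 and 142 CPM in the 4 AGES libraries and 0.587, 0.334, 0.828 and 0.468 CPM in the 4 NSC libraries. The lowest AGES library was above the highest NSC library, and the log2 fold change was 6.37 ± 0.97 (adjusted p = 7.42e-06), falling to 4.68 without AGES replicate 4. Serpina3n had 112, 118, 420 and 764 CPM against 4.11, 2.70, 3.85 and 3.95 CPM, 6.60 ± 0.53 higher (adjusted p = 4.73e-10), and 5.89 higher without AGES replicate 4. Replicates 3 and 4 of AGES were the higher libraries for both secreted proteins.

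Cp had 1181, 912, 2523 and 2386 CPM in AGES and 230, 289, 155 and 202 CPM in NSCs, a log2 fold change of 3.00 ± 0.28 (adjusted p = 2.20e-09). Cd44 had 543, 465, 836 and 970 CPM against 275, 331, 248 and 250 CPM, 1.35 ± 0.16 higher (adjusted p = 7.15e-08). For Cp and Cd44 too, replicates 3 and 4 were the higher AGES libraries. In 5 of the 8 genes (Lcn2, Serpina3n, Steap4, Cp and Cd44) both of these libraries exceeded both of the others, as they did for 20.6% of all genes tested, and in 0 of the 8 were both below, as for 20.2% of all genes. This split of the libraries was taken from the members' own values, so these shares describe it and do not test it. Socs3, at 9.29, 7.57, 18.7 and 21.2 CPM, and Cebpd, at 42.4, 35.8, 103 and 125 CPM, had this order too. The other genes of their list were not counted for it. Gfap varied little, between 48347 and 52936 CPM. The AGES cultures came from different passages, whose part in this order was not tested. Among genes with at least 10 CPM in AGES, the median coefficient of variation was 67.2% for the 4 members (Lcn2, Serpina3n, Cp and Cd44) and 7.38% for all 9337 genes. In the other groups that of the members at this level lay between 7.51% and 19.9%.

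S1pr3 was low in both groups, with 3.08, 2.93, 2.21 and 3.26 CPM in AGES and 0.228, 0.243, 0.191 and 0.234 CPM in NSCs, a log2 fold change of 3.65 ± 0.21 (adjusted p = 3.90e-14). Steap4 had 0.897, 1.19, 1.57 and 1.65 CPM in AGES, while the NSC libraries held 8 Steap4 counts in all. The ratio of summed counts was 20.9 with a 95% counting interval of 10.4 to 49.3, and the fitted log2 fold change of 4.30 ± 0.65 became 5.22 without NSC replicate 3. Aspg had 0 counts in each NSC library and 2, 4, 1 and 11 counts in AGES, which makes it at least 1.53-fold higher in AGES when NSCs are set to 3 counts per library (adjusted p = 0.00014). Without AGES replicate 4 the mean of the other 3 libraries, 0.0754 CPM, lies under that floor of 0.0962 CPM, so the bound rests on that library. Hspb1 had 1, 5, 1 and 4 counts in AGES and 4, 1, 2 and 5 counts in NSCs, so a difference was not detectable at this depth.

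**Figure D4:**
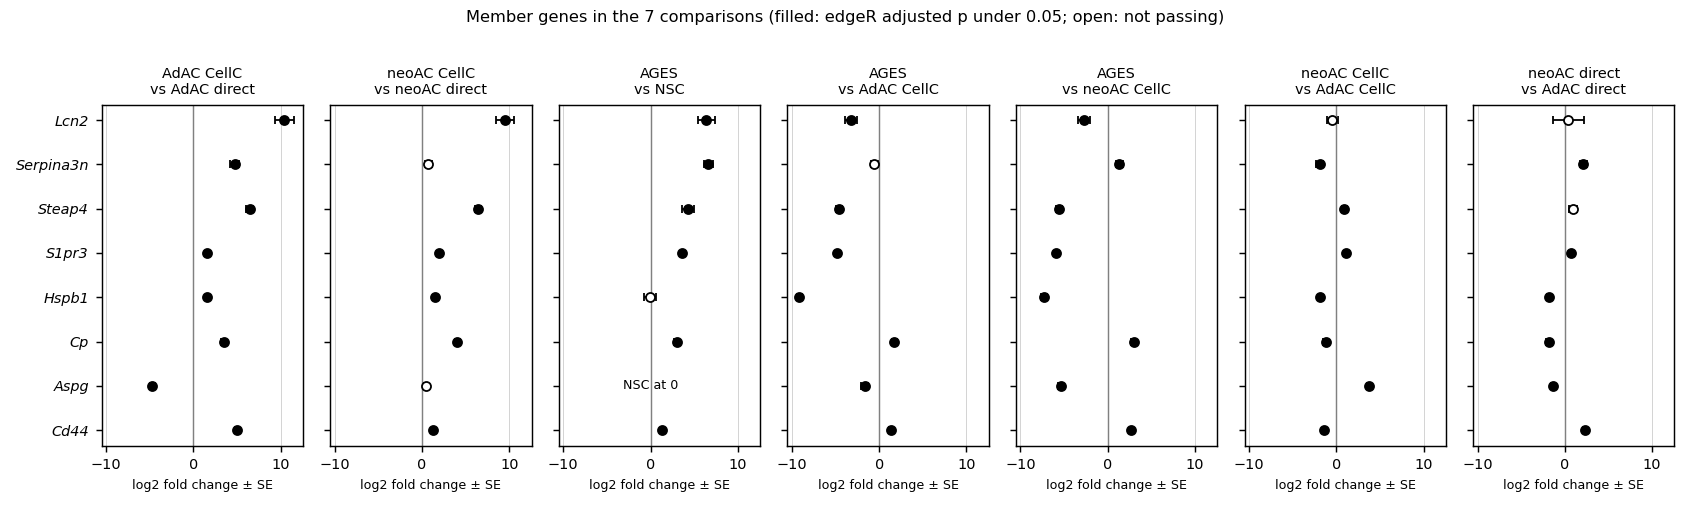
Log2 fold change with standard error of the 8 genes in the 7 comparisons, from the fit of all 24 libraries, filled where the edgeR adjusted p was under 0.05. Aspg is left out of AGES against NSC because NSCs had 0 counts, and Hspb1 has the lowest values in both comparisons of AGES with cultured primary cells.

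How closely AGES resemble cultured primary astrocytes in this program was tested against each age. Against AdAC CellC, 2 of the 8 genes were higher in AGES (Cp and Cd44), 5 were lower and Serpina3n did not pass, with 31.0% of all genes tested higher and 45.2% lower. Against neoAC CellC, 3 were higher (Cp, Cd44 and Serpina3n) and 5 lower, with 34.1% of all genes higher and 40.5% lower. Scaling by library size alone gave 4504 genes higher and 9822 lower in the second of these comparisons, against 6710 and 7977 with TMM. The median log2 fold change of the members was -2.45 against AdAC CellC and -4.08 against neoAC CellC, and that of all genes -0.23 and -0.07. The pair of comparisons shares the AGES libraries.

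Hspb1 separated AGES from cultured primary cells most. Its levels were 57.2, 53.8, 51.7 and 51.9 CPM in AdAC CellC, the values given above in neoAC CellC, and 0.0390, 0.145, 0.0320 and 0.132 CPM in AGES. No AGES library held more than 5 Hspb1 counts, and the log2 fold changes of AGES were -9.16 ± 0.31 and -7.31 ± 0.32 (adjusted p = 4.83e-19 and 7.62e-17). The ratio of summed counts was 593 for AdAC CellC over AGES (95% counting interval 331 to 1188) and 164 for neoAC CellC over AGES (91.4 to 329). Hsp25-ps1, which shares sequence with it, had 0 counts in all AGES and NSC libraries.

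S1pr3 was lower in AGES by 4.83 in size on the log2 scale against AdAC CellC and by 5.90 against neoAC CellC (adjusted p = 3.35e-21 and 1.04e-22). Steap4 was lower by 4.63 and 5.56. Lcn2 was lower by 3.22 (SE 0.69) and 2.76 (SE 0.67), and without AGES replicate 4 these log2 fold changes were -4.92 and -4.46. Every AGES library of these genes lay below every cultured primary library, and 73.1% of all genes tested had no overlap in either direction against AdAC CellC and 69.6% against neoAC CellC. Fibroblast markers were lower in AGES for 7 of 8 genes against AdAC CellC and for 8 of 8 against neoAC CellC, and mural markers for 7 and 5 of 7. Their part in the members' differences was not tested.

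Aspg was lower in AGES than in neoAC CellC, with a log2 fold change of -5.41 ± 0.32 and a ratio of summed counts of 43.8 (95% counting interval 27.5 to 74.2), and of -6.33 without AGES replicate 4. Against AdAC CellC, where it is low as well, the log2 fold change was -1.67 ± 0.40 (adjusted p = 0.00062) with overlapping libraries, and -2.59 without AGES replicate 4. Cp was 1.72 ± 0.27 higher in AGES than in AdAC CellC and 2.96 ± 0.28 higher than in neoAC CellC, and Cd44 was 1.31 ± 0.16 and 2.70 ± 0.17 higher. For Serpina3n the outcome rested on AGES replicate 4. Against AdAC CellC the log2 fold change was -0.58 ± 0.40 (adjusted p = 0.192, 95% interval -1.37 to 0.20), and without that library -1.29 (adjusted p = 0.00141). Against neoAC CellC it was 1.32 ± 0.41 (adjusted p = 0.00656) with overlapping libraries, and without that library 0.61 (adjusted p = 0.0915). In a fit of AGES and neoAC CellC alone it was 1.27 and did not pass (adjusted p = 0.0736).

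Age was compared within cultured and within directly isolated cells. Of the 8 genes, 3 were higher in neoAC CellC than in AdAC CellC (Steap4, S1pr3 and Aspg), 4 were lower (Serpina3n, Hspb1, Cp and Cd44) and Lcn2 did not pass, with 28.5% of all genes tested higher and 35.2% lower. The largest difference was that of Aspg, 3.74 ± 0.26 on the log2 scale (adjusted p = 3.36e-11). S1pr3 was 1.07 ± 0.10 higher and Steap4 0.92 ± 0.25 higher, the latter with overlapping libraries. Serpina3n was lower by 1.90 in size (SE 0.41), Hspb1 by 1.84 (SE 0.18), Cd44 by 1.39 (SE 0.16) and Cp by 1.24 (SE 0.27). For Lcn2 the log2 fold change was -0.46 ± 0.63 (adjusted p = 0.540, 95% interval -1.69 to 0.77), so that a difference of more than 1.69 in size lies outside the interval. Between the cultured ages all 10 astrocyte markers were higher and all 6 oligodendrocyte markers lower in neoAC CellC, and their part in the members' differences was not tested.

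Among directly isolated cells 3 genes were higher in neoAC (Serpina3n, S1pr3 and Cd44), 3 were lower (Hspb1, Cp and Aspg) and Lcn2 and Steap4 did not pass, with 35.0% of all genes tested higher and 36.4% lower. Cd44 measured 43.7, 39.0, 45.6 and 46.2 CPM in neoAC direct against 8.62, 8.13, 8.50 and 10.4 CPM in AdAC direct, 2.29 ± 0.18 higher on the log2 scale (adjusted p = 2.81e-11). Serpina3n measured 93.9, 88.0, 82.2 and 86.8 CPM against 25.7, 15.1, 18.8 and 21.4 CPM, 2.12 ± 0.43 higher (adjusted p = 0.000169). The neonatal libraries of both genes stood clear of the adult ones, as did those of S1pr3, which was 0.71 ± 0.10 higher (31.5, 24.5, 27.8 and 29.3 CPM in AdAC direct). Of all genes tested, 64.9% had no overlap between these groups. Hspb1, Cp and Aspg were lower in neoAC direct by 1.82, 1.83 and 1.41 in size. Lcn2 stood at 0.410 ± 0.0385 and 0.314 ± 0.135 CPM (95% interval of the log2 difference -3.02 to 3.84), and Steap4 at 0.706 ± 0.441 and 0.371 ± 0.143 CPM (-0.04 to 1.92). Without neoAC direct replicate 3, Steap4 was 1.21 higher in neoAC direct and passed (adjusted p = 0.0293). Serpina3n and Cd44 were higher in neonatal than in adult cells when directly isolated and lower when cultured, the reversal that the positive interaction above measures. Oligodendrocyte markers differ most between these ages, with 6 of 6 lower in neoAC direct and a median log2 fold change of -9.53, and all 8 fibroblast markers were higher there, with a median of 1.64. The part of either in the members' differences was not tested.

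The remaining 8 pairs of groups place the members in order. Of all genes tested, 73.8% differed between AGES and neoAC direct, 80.4% between AGES and AdAC direct, 80.0% between NSC and neoAC direct, 77.3% between NSC and AdAC CellC, 80.6% between NSC and neoAC CellC, 86.2% between NSC and AdAC direct, 74.0% between neoAC CellC and AdAC direct and 70.7% between AdAC CellC and neoAC direct. The members that differed were 7, 8, 7, 7, 7, 7, 7 and 8 of 8 in the same order of pairs. At such shares a member that passed says little, so the members that did not pass are given. Lcn2 did not pass between NSC and either directly isolated group (0.554 ± 0.210 CPM in NSC). Cp did not pass between NSC and neoAC CellC, at 219 ± 55.8 and 225 ± 44.8 CPM, and Cd44 did not pass between NSC and AdAC CellC, at 276 ± 38.8 and 283 ± 11.9 CPM. Hspb1 did not pass between neoAC CellC and AdAC direct, and Steap4 did not pass between AGES and neoAC direct (adjusted p = 0.0562). Against the floor in NSCs, Aspg was at least 67.0-fold higher in neoAC CellC, 49.2-fold in neoAC direct, 4.96-fold in AdAC CellC and 130.3-fold in AdAC direct.

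Levels of different genes were compared as CPM per kilobase of exon. On this scale Cp and Serpina3n were the highest members in AGES, at 183 ± 86.0 and 171 ± 150 (161 ± 90.2 and 105 ± 85.3 without AGES replicate 4), and Serpina3n and Lcn2 in AdAC CellC, at 257 ± 68.3 and 164 ± 37.8. Serpina3n was below Cd44 in AGES replicates 1 and 2, at 54.1 and 57.3 against 80.1 and 68.6. In neoAC CellC Lcn2 was first at 119 ± 58.5. In neoAC direct Serpina3n was first at 42.5 ± 2.32, in AdAC direct Hspb1 at 17.7 ± 3.71, and in NSCs Cd44 at 40.8 ± 5.72.

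Other genes often used to define the pan-reactive state are Gfap and Vim, which encode intermediate filaments, Timp1, an inhibitor of metalloproteinases, the oncostatin M receptor Osmr and the chemokine Cxcl10. Of these 5, 4 were higher in AdAC CellC than in AdAC direct and none was lower, 5 were higher in neoAC CellC than in neoAC direct, and 3 were higher in AGES than in NSCs. Gfap was the one that did not pass with culture in adult cells, at 189 ± 56.0 and 167 ± 7.00 CPM, and in AGES it was 10.59 ± 0.21 higher than in NSCs on the log2 scale. Vim rose with culture in adult cells by 3.72 and in neonatal cells by 2.21. Timp1 rose with culture in adult cells from 0.284 ± 0.166 to 145 ± 14.6 CPM, and stood at 0.194 ± 0.108 CPM in AGES. Osmr stood at 51.5 ± 5.22 CPM in AdAC CellC and 57.5 ± 10.6 CPM in neoAC CellC, and at 0.0477 ± 0.0264 CPM in AGES, below the floor. Osmr, Timp1 and Hspb1 thus stood at 0.194 CPM or less in AGES, the group with the highest Gfap. They were low in NSCs too, at means of 0.0243, 0.226 and 0.0979 CPM, and did not pass between AGES and NSCs.

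In neonatal cells most receptors and factors of acute-phase gene induction were lower with culture, while none of the members was. Of 16 such genes, 11 were higher and 2 lower in AdAC CellC than in AdAC direct, against 38.8% and 39.2% of all genes tested. In neoAC CellC, 5 were higher and 10 lower than in neoAC direct, against 34.4% and 31.3%. In AGES, 13 were higher and none lower than in NSCs, against 31.7% and 34.0%. Socs3, a feedback inhibitor that STAT3 induces, averaged 512 ± 80.0 CPM in neoAC direct, 27.3 ± 5.16 CPM in neoAC CellC, 17.1 ± 2.74 CPM in AdAC direct and 73.6 ± 14.0 CPM in AdAC CellC. It thus fell by 4.23 on the log2 scale with culture in neonatal cells and rose by 2.11 in adult ones. Cebpd, an acute-phase transcription factor, was 4.57 ± 0.34 higher in neoAC direct than in AdAC direct, and 3.83 ± 0.33 higher in AdAC CellC than in AdAC direct. Stat3 itself ranged from 118 ± 2.99 CPM in AdAC direct to 480 ± 61.8 CPM in AGES. In the neoAC direct libraries, where Socs3 was highest, Lcn2 reached 0.443 CPM at most. Whether these receptors and factors act on the members here was not tested.

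Lcn2, Steap4 and Cp meet in the handling of iron and copper. Of 21 further genes of this kind 20 were tested, with 11 higher and 6 lower in AdAC CellC than in AdAC direct, 11 higher and 5 lower in neoAC CellC than in neoAC direct, and 7 higher and 8 lower in AGES than in NSCs. The endocytic receptor Lrp2, which can take up lipocalin-2, rose with culture from 35.7 ± 0.791 to 546 ± 83.7 CPM in adult cells and from 9.49 ± 1.66 to 315 ± 54.4 CPM in neonatal ones, and stood at 5.79 ± 0.565 CPM in AGES. Hmox1, which releases iron from heme, rose by 4.73 ± 0.21 and 2.67 ± 0.19 on the log2 scale. Heph, the membrane-bound relative of ceruloplasmin, did not move with Cp in adult culture, where it was lower in AdAC CellC than in AdAC direct by 0.82 in size. It was higher in neoAC CellC than in neoAC direct by 0.85. In AGES, where Cp was highest, Heph stood at 0.218 ± 0.104 CPM, and in NSCs at 0.159 ± 0.149 CPM.

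The Serpina3 cluster holds many near copies in mouse. Of 10 paralogs of Serpina3n, 3 were tested and only Serpina3m had a group mean above 1 CPM, 7.79 ± 7.34 CPM in AGES, with 2.18, 2.84, 8.07 and 18.1 CPM in the 4 libraries. Of those tested, 3 were higher in AdAC CellC than in AdAC direct and 1 in neoAC CellC than in neoAC direct. Of the 100-base windows of the longest Serpina3n transcript, 0.204% also occur in another gene.

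S1pr3 and S1pr1, the main sphingosine-1-phosphate receptor of resting astrocytes, moved in opposite directions with culture. S1pr1 fell from 947 ± 53.4 to 31.2 ± 4.01 CPM in adult cells and from 539 ± 46.4 to 152 ± 16.1 CPM in neonatal cells, log2 fold changes of -4.92 ± 0.20 and -1.83 ± 0.17, whereas both rose from NSCs to AGES, S1pr1 by 4.26 ± 0.19. Per kilobase, S1pr1 was at 311 and S1pr3 at 6.34 CPM in AdAC direct, and S1pr1 was at 10.2 and S1pr3 at 18.3 CPM in AdAC CellC. Of the 9 tested genes of sphingosine-1-phosphate signalling apart from S1pr3, 4 were higher and 4 lower with culture in adult cells, 2 higher and 3 lower in neonatal cells, and 2 higher and 4 lower from NSCs to AGES. Sphk1, a kinase that makes the ligand, was 3.80 ± 0.26 higher in AdAC CellC than in AdAC direct and lower in neoAC CellC than in neoAC direct, at -1.56 ± 0.24.

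Hspb1 was near the floor in AGES, the group in which its relatives Hspb8 and Cryab were highest. Hspb8 averaged 2515 ± 82.1 CPM and Cryab (alpha-B crystallin) 1365 ± 418 CPM in AGES, 7.67 ± 0.17 and 7.02 ± 0.19 higher than in NSCs on the log2 scale. Of the 6 tested family members apart from Hspb1, 3 were higher and 1 lower in AGES than in NSCs, 5 higher and 1 lower in AdAC CellC than in AdAC direct, and 6 of 6 higher in neoAC CellC than in neoAC direct. Cryab was the adult exception, lower in culture by 0.50 in size. Of 10 other chaperone genes regulated by heat shock factor, 5 were higher and 1 lower with culture in adult cells, 5 higher and 3 lower in neonatal cells, and 2 higher and 7 lower from NSCs to AGES. The co-chaperone Bag3 was low in the same groups as Hspb1, at 0.313 ± 0.0909 CPM in NSCs and 0.351 ± 0.132 CPM in AGES against 41.4 ± 5.07 CPM or more in the primary groups.

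**Figure D5:**
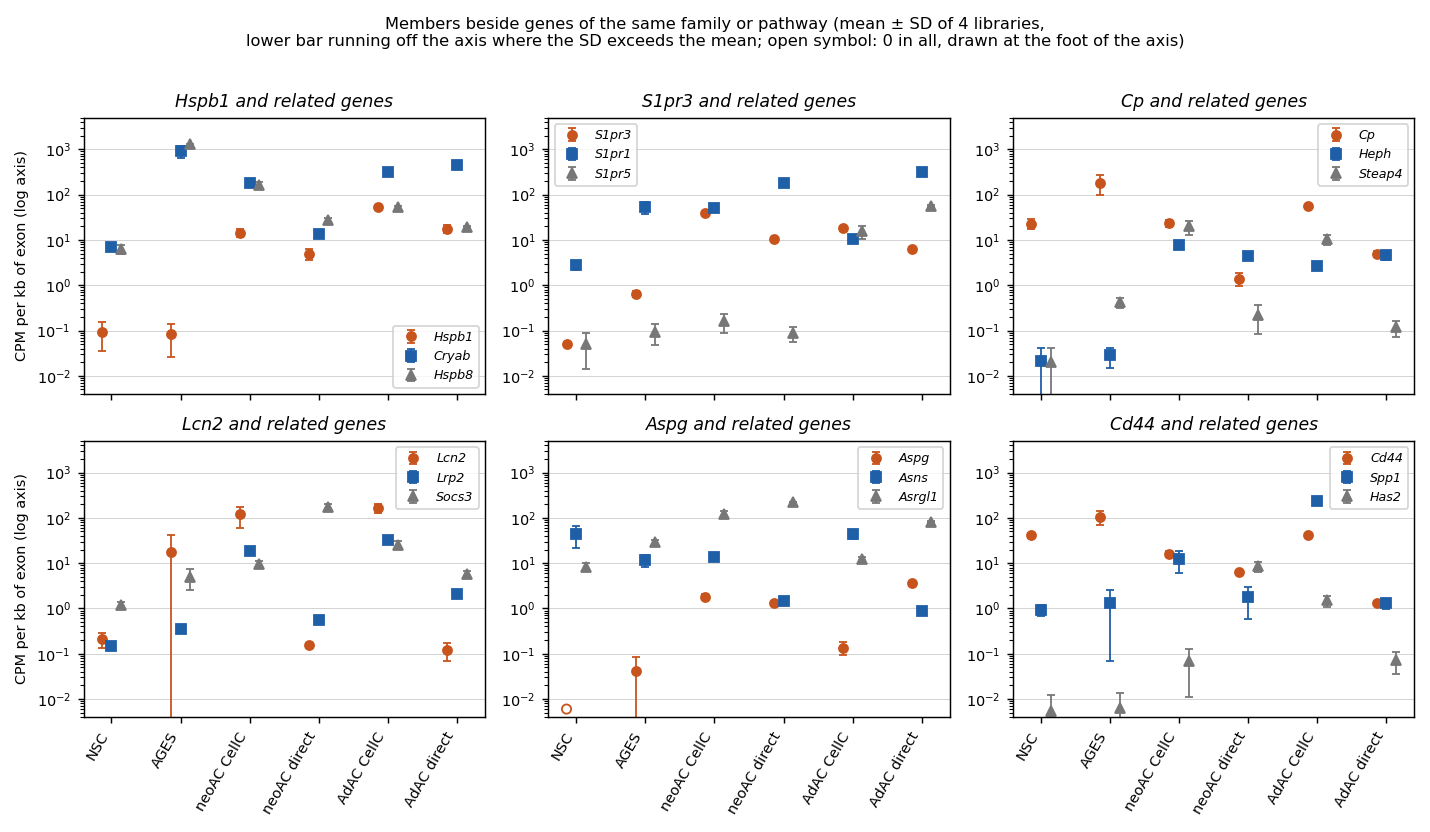
CPM per kilobase of exon of 6 members, each in a panel with related genes, as the mean and SD of 4 libraries per group on a log axis. S1pr1 and S1pr3 move in opposite directions with culture, and Cryab and Hspb8 are high in AGES where Hspb1 is near the floor.

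Cd44 was read beside genes that make, cleave or bind hyaluronan and link its receptor to the cytoskeleton. Of 14 tested, 12 were higher and 1 lower in AdAC CellC than in AdAC direct, 8 higher and 4 lower in neoAC CellC than in neoAC direct, and 3 higher and 3 lower in AGES than in NSCs. Hmmr, another hyaluronan-binding protein that is also high in dividing cells, was 7.03 higher on the log2 scale in AdAC CellC than in AdAC direct. Spp1, encoding the Cd44 ligand osteopontin, rose from 2.15 ± 0.578 to 396 ± 63.3 CPM in adult cells. The hyaluronan synthase Has2 fell by 6.93 on the log2 scale with culture in neonatal cells, from 36.3 ± 9.49 to 0.293 ± 0.245 CPM, and rose by 4.33 in adult cells, from 0.309 ± 0.155 to 6.37 ± 1.75 CPM, while Cd44 rose at both ages.

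Aspg hydrolyses asparagine and Asns makes it, and they moved in opposite directions with adult culture. Asns rose from 2.44 ± 0.427 to 118 ± 23.7 CPM in adult cells and from 4.03 ± 0.367 to 36.7 ± 6.10 CPM in neonatal cells. Asrgl1, another asparaginase, fell by 2.71 on the log2 scale in adult cells and by 0.85 in neonatal cells. Of the 5 genes of asparagine metabolism apart from Aspg, 4 were higher and 1 lower with culture in adult cells, 3 higher and 1 lower in neonatal cells, and 2 higher and 3 lower from NSCs to AGES.

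Likeness of pattern was measured as the root mean square difference of 6 centred group means of log2 CPM, over 12122 protein-coding genes with at least 10 CPM in some group. It is a description over 6 groups, in which most genes differ. The nearest genes were Afap1l2 and Arpin for S1pr3 (0.45 and 0.54), Zc3hav1 and Cep170b for Hspb1 (0.36 and 0.38), Tagln3 and Cacna1e for Aspg (0.36 and 0.44) and Tuba1c and Sdc1 for Cd44 (0.42 and 0.44). For Steap4 they were Ccn2 and Akr1c14 (0.52 and 0.78), for Cp Tspan4 and Cdkn2b (0.68 for each) and for Serpina3n Wnt9a and Gadd45b (0.74 and 0.83). Among the members themselves the nearest pair was Cp and Cd44 at 1.31, followed by S1pr3 and Hspb1 at 1.53. The farthest was Lcn2 and Aspg at 5.34. The nearest genes came from a search of 12122 genes, far more than the members, so their smaller distances say nothing about the members.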

How the data were processed

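RNA of 24 mouse samples (6 groups of 4) was sequenced from stranded poly(A) libraries. The authors aligned the paired reads to GRCm38 with STAR 2.7.3a after demultiplexing with bcl2fastq 2.20, and deposited unnormalised read counts per Ensembl gene made with featureCounts. Whether the counting used strand is not given in the sources used here, so reads of overlapping genes on opposite strands cannot be told apart.

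Identifiers were named with the Gencode vM21 annotation (GRCm38), which held 49412 of the 49671 genes. Differential expression was tested with the quasi-likelihood test of edgeR 4.0.16 (limma 3.58.1, R 4.3.3) on the counts, in 1 fit of all groups with TMM factors of 0.888 to 1.13, after the default expression filter had left 19691 genes, with a call at an adjusted p under 0.05. The standard error of a log2 fold change was its size divided by the square root of F, so these errors and the intervals built on them are approximate. The interaction was the adult minus the neonatal change with culture. CPM are TMM-scaled, and CPM per kilobase divide them by the union exon length. DESeq2 1.42.0 was an alternative. On counts simulated for AdAC CellC against AdAC direct (18763 genes), edgeR recovered 79 of 100 genes changed 2-fold and 99 of 100 changed 4-fold, with 8 false calls. The changed genes were not among those of lowest count, went up and down in equal number, and no other gene differed. In the real comparison 38.8% of genes were higher and 39.2% lower, so the simulation does not measure the error there. Libraries held a median of 32239904 counts. The smallest two-sided exact p for 4 against 4 libraries is 0.0286, and no such test is reported. Intervals of ratios of counts and floors cover counting error only. Replicates were separate isolations of primary astrocytes and, for AGES and NSCs, separate cultures at different passages of 1 line.

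The members and the gene lists were chosen with earlier results of these data known. Besides members and their direct partners, the genes named from a list were at most the 2 with the largest change in a comparison, taken from those that passed and whose higher mean reached 10 CPM, and for likeness the 2 nearest genes of each member. Some genes that this rule would name are not reported here. The alternatives were other scaling, filters, tests and fits of the compared groups alone, with and without the replicate block, and leaving out each library.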

Additional observations from a re-analysis of the deposited data

Results flagged for a closer look

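For 4 of the 8 genes the change with culture differed between adult and neonatal astrocytes by the test of the difference itself (edgeR interaction, adult minus neonatal, on the log2 scale), as it did for 68.6% of all genes tested. It was 4.02 for Serpina3n, 3.67 for Cd44, -5.14 for Aspg and -0.36 for S1pr3. The value for S1pr3 rests on single libraries, since it did not pass without any 1 of 6 of them. The neonatal and adult cells were isolated with different kits, so age and isolation cannot be told apart. Fibroblast and oligodendrocyte markers also changed differently with culture at the 2 ages, and their part in these differences was not tested. In the 48 sets of 4 libraries (1 for each gene and group) no library stood apart by Dixon's criterion, which chance would meet in about 1 set of 20.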

How the results depend on the processing

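No value of a member changed sign where it had passed, under any alternative run. Over other scaling, filters and tests, 393 member values kept their side of the threshold, 8 newly passed and 3 were lost. Over the leave-one-out fits 567 kept it, 2 newly passed and 7 were lost. Values that passed in neither fit could change sign among those kept. That of Hspb1 in AGES against NSC did so, at -0.46 to 0.28 over the leave-one-out fits. Requiring at least 10 counts in every library kept only Serpina3n, Cp and Cd44 of the members, so at most 3 could be called. Of these, 3 were called in AdAC CellC against AdAC direct (3 higher, 0 lower) and 2 in neoAC CellC against neoAC direct (2 higher). In AGES, 3 were called against NSC (3 higher), 2 against AdAC CellC (0 lower) and 3 against neoAC CellC (0 lower). In neoAC CellC against AdAC CellC 3 were called (0 higher), in neoAC direct against AdAC direct 3 (1 lower) and in the interaction 2 (0 lower). Of the 11977 genes kept, 5120 were higher and 4696 lower in the first comparison. In the order given, the others had 4694 and 3860, 4875 and 4801, 4292 and 5082, 4135 and 4631, 3972 and 4096, 4922 and 4259, and 4525 and 4198. Asking also for a log2 fold change over 1 left 1 negative interaction, and leaving out libraries gave 1 to 2. Scaling by library size alone shifted the median over all genes tested, on the log2 scale, to 0.27 in neoAC CellC against neoAC direct, -0.45 in AGES against AdAC CellC and -0.37 in AGES against neoAC CellC. Among list counts given above, hyaluronan genes higher in AGES than in NSCs were 3 or, with DESeq2, 7, iron and copper genes lower in neoAC CellC than in neoAC direct were 5 or, by library size alone, 3, fibroblast markers lower with adult culture 1 or, with DESeq2, 2, and heat shock factor genes lower there 1 or, by library size alone, 0. The causes were not tested.

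Libraries with the same number deviated together weakly or not at all (correlations of -0.095 to 0.106). Correlations of this size, set against no reference, cannot exclude shared isolations, and the numbers were not used as pairs in the main fit. With the replicate block in a fit of the compared groups, Serpina3n in neoAC CellC against neoAC direct was 0.67 (adjusted p = 5.19e-05), Aspg there 0.42 (0.041) and the interaction of Cp -0.60 (0.0207), all newly passing, while Aspg in AGES against AdAC CellC (-1.61, 0.0505) and Serpina3n in AGES against neoAC CellC (0.80, 0.191) did not pass. Without the block these fits gave the interaction of Cp as -0.59 (0.0412). At the depth of these libraries, Hspb1 and Aspg in NSCs and AGES and Steap4 in NSCs were too close to 0 counts for a fold between those groups to be read closely.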
